A study of Mus musculus with 2 samples.

Results

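The mitochondrial ribosome genes are the 76 genes, of 22740 in the main expression table, whose symbol is Mrpl or Mrps followed by a number and at most 1 further letter from a to c. There are 47 Mrpl symbols, named for the large subunit, and 29 Mrps symbols, named for the small subunit, with exceptions given further on. They were measured by RNA sequencing of poly-A selected RNA from the whole uterus of C57BL/6 mice on day 4 of pregnancy. The 2 libraries, 1 from each of 2 mice, form a single group and are referred to by their title numbers as uterus 1 and uterus 2. The titles mark the mice as WT, the usual short form of wild type, and the labels name no treatment and give no age. Without a contrast between groups, the data give the genes' levels in this tissue and the spread between 2 animals. In bulk tissue, fewer cells of a type and less RNA per cell cannot be told apart.

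Mitochondria carry their own ribosome, which makes only the few membrane proteins encoded by mitochondrial DNA, all of them parts of the oxidative phosphorylation complexes. Its RNAs come from mitochondrial DNA, whereas every one of its proteins is encoded in the nucleus, made in the cytosol and imported. The large subunit joins amino acids and releases the chain through an exit tunnel at the inner membrane, and the small subunit reads the messenger RNA. Some of its proteins have relatives in all ribosomes, some only in bacterial ribosomes, and others exist only in mitochondria. On day 4 the mouse uterus is close to embryo attachment, and it is a mixture of epithelium, stroma and smooth muscle.

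A few promoters are shown here because some of the genes share short sequence features around their starts, which are counted further on. The sequences were read from mouse build NCBIM37 (mm9) at the deposited starts, 5′ to 3′ on the strand of the gene, and run from up to 110 bases before the start to 30 bases from the start base on. Where a gene on the opposite strand starts nearer, they begin at most 30 bases inside it, so that the ETS matches of Mrpl27 and Mrps26 lie at or past the neighbour's start. Capitals mark matches to an ETS motif (CCGGAAG, or CTTCCGG on the other strand), an NRF1 motif (GCGCA and GCGC with any base between them) or a YY1 motif (AA and ATGGCGGC with any base between them). The promoters of Mrps10 (chr17:47505726-47505865, + strand), Mrps18a (chr17:46247843-46247982, + strand), Mrps27 (chr13:100114631-100114770, + strand) and Mrpl27 (chr11:94515038-94515134, + strand) held an ETS match and a YY1 match together.
Mrps10: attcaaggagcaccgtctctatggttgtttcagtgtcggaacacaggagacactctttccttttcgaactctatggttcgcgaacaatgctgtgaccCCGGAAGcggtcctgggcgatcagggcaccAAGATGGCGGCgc
Mrps18a: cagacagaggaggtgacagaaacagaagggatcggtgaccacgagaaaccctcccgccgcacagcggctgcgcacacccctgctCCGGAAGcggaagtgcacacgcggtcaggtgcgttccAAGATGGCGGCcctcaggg
Mrps27: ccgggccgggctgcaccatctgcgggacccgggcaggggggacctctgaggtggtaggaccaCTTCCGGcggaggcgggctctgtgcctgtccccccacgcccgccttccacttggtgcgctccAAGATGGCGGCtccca
Mrpl27: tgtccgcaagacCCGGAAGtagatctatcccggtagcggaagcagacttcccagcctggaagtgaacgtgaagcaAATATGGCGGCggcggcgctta

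The next promoters show the NRF1 match and the ETS match without YY1. Mrps26 (chr2:130389455-130389522, + strand) held an ETS match followed by overlapping NRF1 matches, and Mrpl9 (chr3:94247148-94247287, + strand) held an NRF1 match alone. Mrpl43 (chr19:45080903-45081042, - strand) held a pair of ETS matches, and Mrps12 (chr7:29526771-29526910, - strand) held a single ETS match.
Mrps26: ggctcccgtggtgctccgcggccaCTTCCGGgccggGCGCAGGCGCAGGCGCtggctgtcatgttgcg
Mrpl9: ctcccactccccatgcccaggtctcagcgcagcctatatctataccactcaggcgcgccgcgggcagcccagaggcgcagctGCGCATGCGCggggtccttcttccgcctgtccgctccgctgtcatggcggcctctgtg
Mrpl43: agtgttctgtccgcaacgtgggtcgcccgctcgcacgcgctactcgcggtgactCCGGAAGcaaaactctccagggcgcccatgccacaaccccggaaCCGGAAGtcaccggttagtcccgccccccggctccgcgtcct
Mrps12: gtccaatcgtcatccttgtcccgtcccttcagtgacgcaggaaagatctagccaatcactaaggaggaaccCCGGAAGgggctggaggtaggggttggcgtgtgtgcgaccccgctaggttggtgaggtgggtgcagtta

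The last sequence is the stretch between Mrpl46 and Mrps11, genes that start on opposite strands and run away from each other (chr7:85927945-85928046, shown on the + strand, along which Mrps11 is read). Here capitals mark the 41 bases that lie between the start bases.
Mrpl46-Mrps11: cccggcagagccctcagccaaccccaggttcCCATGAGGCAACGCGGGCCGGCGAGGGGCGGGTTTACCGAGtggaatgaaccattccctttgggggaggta

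Values are the authors' RPKM, reads scaled to exon length and to library size, so levels of different genes can be set side by side per length. The whole reads behind the values were estimated from the RPKM and summed to 3954838 in uterus 1 and 4392562 in uterus 2. These sums lie above the scaling totals of 3834174 and 4256101 by which the values were divided. The reason for the excess was not tested, and some recovered reads may be too high. Markers of the uterus (Pgr, Esr1, Hoxa10, Hoxa11, Hdc, Ihh, Ltf) had means of 8.98 to 152 RPKM, those of smooth muscle 152 to 622 RPKM and those of stroma 484 to 1924 RPKM. The epithelial keratins and adhesion genes lay at 25.6 to 82.4 RPKM. Of the markers of other tissues, Cdx2 (blastocyst), Adipoq and Ucp1 (fat) and Cyp19a1 and Zp3 (ovary) were listed at 0, which some genes that most cells use were too. The blastocyst markers above 0 reached 0.567 RPKM, the fat marker 0.0613 RPKM and the ovary and oviduct markers 7.54 RPKM. Of the skeletal muscle markers, Acta1 lay at 83.9 RPKM, Ckm at 2.34 RPKM and Myl1 was listed at 0.

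All 76 mitochondrial ribosome genes were expressed at 1 RPKM or more in both uteri, against 58.4% of all genes in the table and 61.6% of genes with a protein-coding (NM_) identifier. At 10 RPKM or more in both uteri there were 66. The median member had a mean of 22.9 RPKM, with medians of 21.4 RPKM in uterus 1 and 23.2 RPKM in uterus 2. The median of all 13647 genes whose mean reached 1 RPKM was 10.99 RPKM. Of the members, 39 (51.3%) lay above 22.1 RPKM, the level that 25% of those genes exceeded. The central members were close together, from 15.4 RPKM at the lower quartile to 30.6 RPKM at the upper. Reads of the 76 genes made up 0.192% of the recovered reads in uterus 1 (95% Wilson interval 0.188 to 0.196%) and 0.195% in uterus 2 (0.191 to 0.200%). The intervals cover counting error only, not the uncertainty of the recovered reads and their sums.

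**Figure D1:**
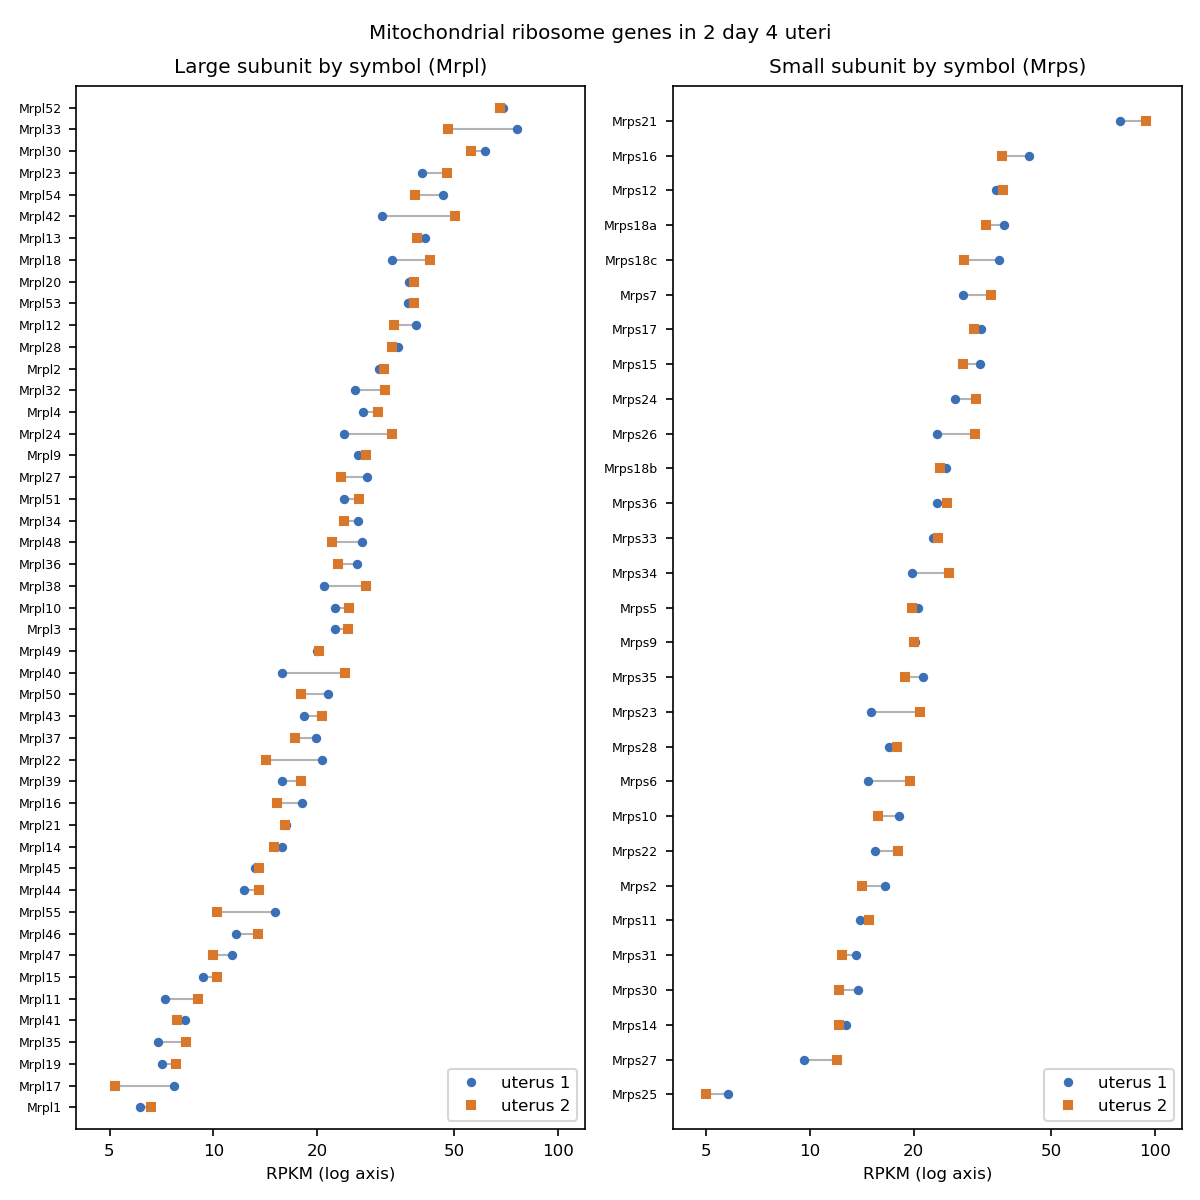
RPKM of each of the 47 Mrpl genes (left) and 29 Mrps genes (right) on a log axis, ordered by mean. Circles are uterus 1, squares are uterus 2 and a line joins the values of a gene. Most pairs lie close together, from 5.40 RPKM (mean of Mrps25) to 86.8 RPKM (mean of Mrps21), and the widest gaps belong to Mrpl33 and Mrpl42.

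Mrps21 (NM_078479, chr3:95666575-95674542), a small subunit protein with relatives in bacteria, was the highest member, with 79.5 RPKM in uterus 1 and 94.1 RPKM in uterus 2. Mrpl52 (NM_026851, chr14:55045746-55048587), a large subunit protein found only in mitochondria, followed at 69.0 and 67.9 RPKM. Both values of Mrps21 lay above both values of Mrpl52. Mrpl33, a bacterial-type protein of the large subunit, was at 76.1 and 47.9 RPKM, so that its values spanned those of Mrpl52 and of the next gene. That gene was Mrpl30, a large subunit protein with relatives in cytosolic ribosomes, at 61.5 and 55.8 RPKM. Both values of Mrpl33 lay below those of Mrps21, but its place relative to Mrpl52 and Mrpl30 was not set beyond the spread of its own values.

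By mean RPKM there was a step below these 4 to Mrpl23, a protein at the mouth of the exit tunnel, with 40.3 and 47.6 RPKM. In uterus 2 alone there was no such step, as Mrpl33 (47.9 RPKM) lay beside Mrpl23 and below Mrpl42. Mrpl54 (46.2 and 38.4 RPKM), Mrpl42 (30.9 and 50.1 RPKM), Mrpl13 (41.1 and 38.9 RPKM) and Mrps16 (43.3 and 36.1 RPKM) came next. Their values overlapped with those of Mrpl23, so no order among them exceeded the spread between animals. Mrps12, the decoding protein whose bacterial relative is the site of streptomycin resistance, had 34.7 and 36.4 RPKM. Mrps18a followed at 36.5 and 32.4 RPKM, and Mrps18c at 35.3 and 28.1 RPKM.

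At the other end, Mrps25 (NM_025578, chr6:92119517-92134017), a mitochondria-specific small subunit protein, was lowest at 5.81 and 4.997 RPKM. Mrpl1, a large subunit protein with relatives in all ribosomes, had 6.13 and 6.59 RPKM. Mrpl17, a protein near the exit tunnel, had 7.69 and 5.18 RPKM, a range that held both values of Mrpl1 and the higher value of Mrps25. Mrpl19 (7.10 and 7.81 RPKM), Mrpl35 (6.92 and 8.33 RPKM), Mrpl41 (8.29 and 7.85 RPKM) and Mrpl11 (7.24 and 9.05 RPKM) followed, with values from 6.92 to 9.05 RPKM. The means of these 7 genes lay under the median of all genes. Among the small subunit genes, only Mrps25 had a mean under 10 RPKM, and the next lowest were Mrps27 (9.60 and 11.95 RPKM), Mrps14 (12.7 and 12.2 RPKM), Mrps30 (13.8 and 12.1 RPKM) and Mrps31 (13.6 and 12.4 RPKM).

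Set by subunit, the median large subunit gene had 23.6 RPKM and the median small subunit gene 20.2 RPKM, a difference of 0.23 on the log2 scale. In the separate uteri this difference was 0.13 and 0.17, small beside the spread of 0.87 and 0.73 (SD, log2 scale) among the genes of each subunit. Some symbols do not match the place that structures give the protein. Mrps18a (mean 34.4 RPKM) and Mrps30 (mean 12.9 RPKM) sit in the large subunit, and Mrps36 (23.3 and 24.9 RPKM) is a component of the 2-oxoglutarate dehydrogenase complex. Counting the former as large and leaving out the latter left the difference at 0.23. By origin, the 27 proteins with relatives in all ribosomes had a median of 23.5 RPKM, the 19 bacterial-type proteins 25.7 RPKM and the 29 mitochondria-specific proteins 19.9 RPKM.

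By place in the ribosome, the 5 genes of the stalk that recruits translation factors had a median of 36.1 RPKM. Mrpl12, whose bacterial relative forms the flexible arms of the stalk, had 38.8 and 33.4 RPKM, and Mrpl10, which anchors those arms, had 22.5 and 24.7 RPKM. Mrpl53 (36.6 and 38.3 RPKM) and Mrpl54 were at the upper end, and Mrpl11 at the base of the stalk was far below them, 5.20-fold under Mrpl54 in mean RPKM. The 5 small subunit genes around the decoding site lay closer together, with a median of 28.4 RPKM. They ran from Mrps9 (20.2 and 20.04 RPKM) and Mrps5 (20.6 and 19.8 RPKM) through Mrps24 (26.4 and 30.3 RPKM) and Mrps7 (27.8 and 33.5 RPKM) to Mrps12.

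The 8 genes at the exit tunnel had the lowest median of these places, 15.1 RPKM. They included Mrpl45, which tethers the ribosome to the inner membrane, at 13.2 and 13.5 RPKM, and Mrpl44, a relative of RNase III, at 12.3 and 13.5 RPKM. Mrpl22, which lines the tunnel, had 20.7 and 14.2 RPKM. Mrpl24 (23.9 and 32.9 RPKM) and Mrpl23 were the highest of this place, and Mrpl39 (15.8 and 17.9 RPKM), Mrpl47 (11.4 and 9.97 RPKM) and Mrpl17 made up the rest. The 5 genes of the central protuberance, where a tRNA replaces the 5S ribosomal RNA of other ribosomes, had a median of 24.3 RPKM and ran from Mrpl46 (11.7 and 13.5 RPKM) to Mrpl18 (32.9 and 42.6 RPKM). The classes and places overlapped widely in level, and genes are not replicates, so these medians are descriptions.

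Level and gene length went together among the members. Over the 76 genes, mean RPKM fell with the exon length that the authors' values imply, with a Spearman rho of -0.70 (Pearson r of -0.80 on log2 values), as a description across genes that share the same libraries. The same rho was -0.06 over all 13647 genes whose mean reached 1 RPKM, -0.38 over 74 nuclear oxidative phosphorylation genes and -0.26 over 75 cytosolic ribosomal protein genes. RPKM divides by that length, so the measures share a term. The 10 members with the lowest RPKM had a median exon length of 3932.5 bases (872 to 6712), and the 10 with the highest had 584.5 bases (407 to 959).

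Reads went the other way and less closely: over the 76 members, reads rose with exon length with a Spearman rho of 0.39 (Pearson r of 0.39 on log2 values), and over all 13647 genes the rho was 0.45. The 10 lowest by RPKM held a median of 222 reads in both uteri together (75 to 346), and the 10 highest held 229.5 (181 to 327). Mrpl17, with an exon length of 6712 bases, had 198 reads in uterus 1 and 148 in uterus 2. Mrps21, with 407 bases, had 124 and 163 reads. Across all members, the highest and lowest differed 16.1-fold in mean RPKM and 4.73-fold in reads. Between the 90th and 10th percentiles the ratios were 3.90 in RPKM and 2.45 in reads. Whether the longest forms given by the annotation are the ones present in this tissue was not tested.

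**Figure D2:**
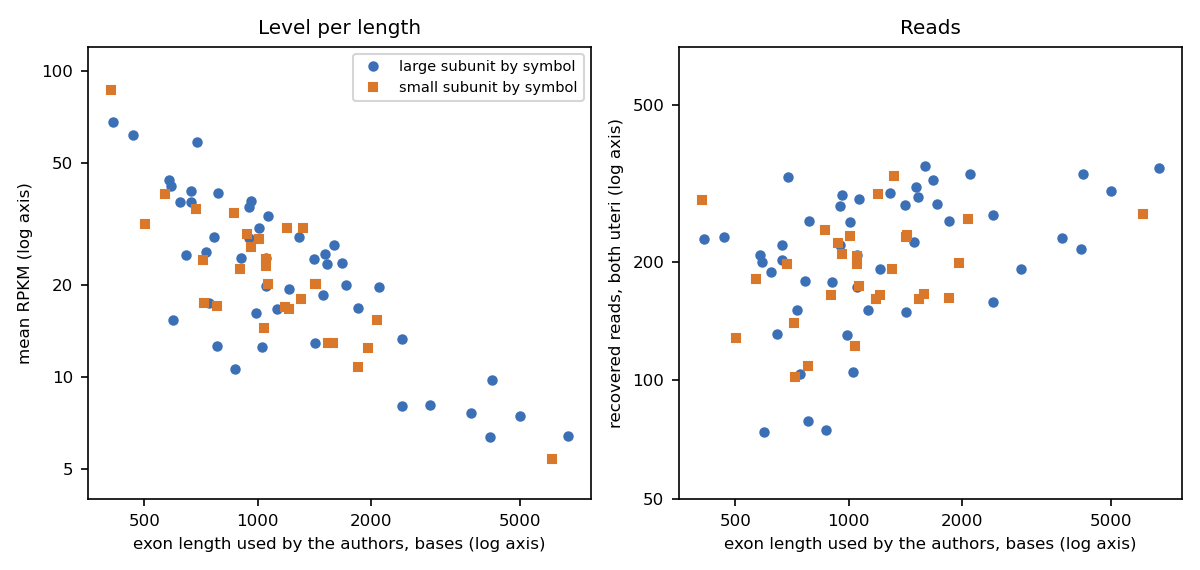
Mean RPKM (left) and recovered reads in both uteri (right) of the 76 genes against exon length in bases, all on log axes; circles are Mrpl and squares are Mrps genes. RPKM falls from 86.8 for Mrps21 to 5.40 for Mrps25 as length grows. Reads range from 74 to 350 and are weakly higher in longer genes (Spearman rho of 0.39).

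The members' values in the 2 uteri were compared next. The median log2 ratio of uterus 2 over uterus 1 was 0.04, taken after adding 0.1 RPKM, which slightly understates changes of low genes. Of the members, 40 (52.6%) were higher in uterus 2 and 36 in uterus 1, against 50.1% of all genes higher in uterus 2. The SD of the ratios was 0.27, and it was 0.27 over all genes between 10 and 100 RPKM. Counting error alone gave a median standard error of 0.20 for a member, since the median member held 95 reads in uterus 1 and 110.5 in uterus 2. Across the 76 genes, levels in the 2 uteri had a Pearson r of 0.95 (log2 values) and a Spearman rho of 0.94. Over all genes whose mean reached 1 RPKM, which span a wider range of levels, these were 0.97 and 0.98, and they were 0.99 and 0.98 for oxidative phosphorylation genes and 0.998 and 0.985 for cytosolic ribosomal protein genes.

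No member differed 2-fold or more between the animals, against 2.6% of all genes whose mean reached 1 RPKM. Genes of like level also seldom did, 64 of 9634 between 5 and 100 RPKM and 39 of 6841 between 10 and 100 RPKM. A ratio of at least 1.5-fold was reached by 3 members (3.95%), against 8.35% of all those genes and 3.25% of genes between 5 and 100 RPKM. Of the 3, 2 were higher in uterus 2 (4.1% of all those genes) and 1 in uterus 1 (4.26%). A two-sided exact binomial test on the recovered reads called 3 members (Benjamini-Hochberg over 15186 genes, adjusted p under 0.05), where it called 5.4% of all genes tested. At an unadjusted p under 0.05 there were 8 members (10.5%), against 16.3% of all genes tested and 18.1% of those between 5 and 100 RPKM. Genes between 5 and 100 RPKM had more reads, with medians of 168 and 186 against 95 and 110.5 for the members. The test calls a given ratio more readily with more reads, so these shares do not show that the members varied less. This test compares these libraries and not conditions, and it takes in counting error only.

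Mrpl33 (NM_025796, chr5:31916324-31925017) had 136 reads in uterus 1 and 95 in uterus 2, a log2 ratio of -0.67 (95% exact interval -1.06 to -0.28, adjusted p = 0.0159 by the exact binomial test). Mrpl42 (NM_026065, chr10:94943440-94964561), a mitochondria-specific protein of the large subunit, went the other way, with 79 and 142 reads and a log2 ratio of 0.69 (0.29 to 1.11, adjusted p = 0.0155 by the exact binomial test). Mrpl17 (NM_025301, chr7:112952296-112959601) was lower in uterus 2 by a log2 ratio of -0.56 (-0.89 to -0.26, adjusted p = 0.00928 by the exact binomial test). The 3 genes moved in both directions, and all are large subunit genes by symbol (3 of 47, against 0 of 29 small subunit genes, of which 1 had an unadjusted p under 0.05), a difference between subunits that was not tested. The reads of Mrpl17 rest on the annotated length of the gene. The RPKM values alone allow as few as 99 and 74 reads for Mrpl17, and with the smallest possible reads for every gene 2 members passed.

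Mrpl40, a protein of the central protuberance, had 15.8 and 24.1 RPKM, a log2 ratio of 0.60 (0.15 to 1.07) that did not pass (adjusted p = 0.102 by the exact binomial test). The next largest ratios toward uterus 2 among members of at least 10 RPKM were 0.48 for Mrps23 (0.05 to 0.92), 0.46 for Mrpl24 (0.06 to 0.87) and 0.41 for Mrps6 (-0.16 to 0.998). Toward uterus 1, after Mrpl33, they were -0.55 for Mrpl55 (-1.24 to 0.12), -0.54 for Mrpl22 (-1.13 to 0.04), -0.33 for Mrps18c (-0.86 to 0.19) and -0.29 for Mrpl48 (-0.70 to 0.12). None of these 7 passed the adjusted test. Of the 5 genes of the central protuberance, 4 were higher in uterus 2, with a median log2 ratio of 0.37, against 5 of 8 at the exit tunnel, 3 of 5 in the stalk, 3 of 5 at the decoding site and 50.1% of all genes. In the central protuberance 3 of 5 had an unadjusted p under 0.05 by the exact binomial test, and none passed after adjustment. The unadjusted counts were 2 of 8 at the exit tunnel, where Mrpl17 passed, 0 of 5 in the stalk and 0 of 5 at the decoding site. The shares were 16.3% of all genes tested and 18.1% of those between 5 and 100 RPKM. A difference between places was not tested.

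**Figure D3:**
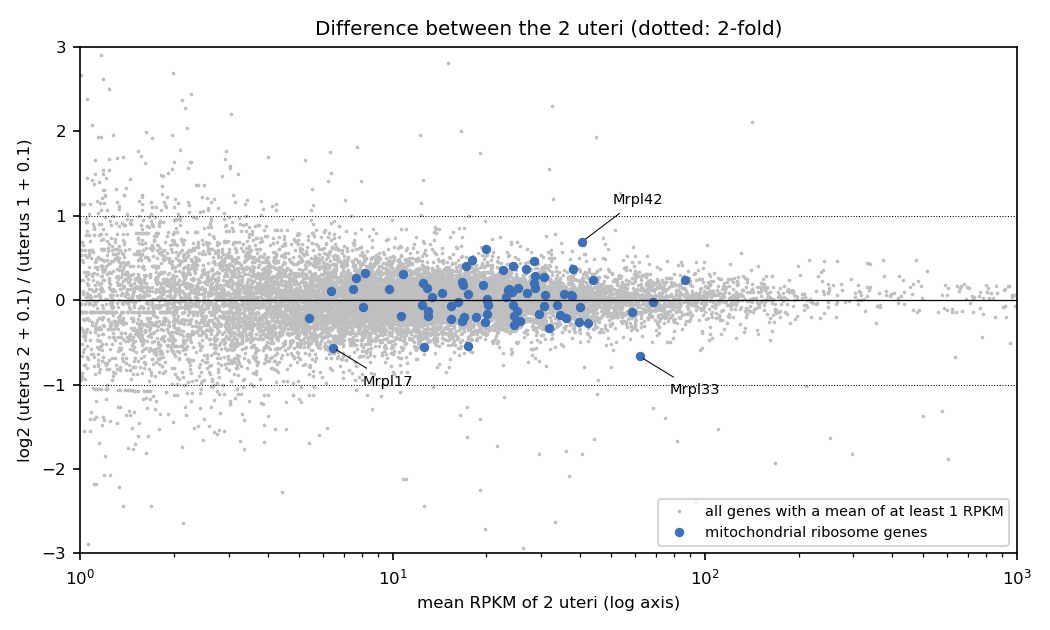
Log2 ratio of uterus 2 over uterus 1, after adding 0.1 RPKM, against mean RPKM (log axis) for the mitochondrial ribosome genes (large points) and all genes whose mean reached 1 RPKM (small points); genes beyond the axes are not drawn. All 76 members lie inside the dotted 2-fold lines, between -0.67 (Mrpl33) and 0.69 (Mrpl42).

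Mitochondrial ribosome proteins with other symbols had levels in the same range. Chchd1, a small subunit protein, had 42.5 and 43.0 RPKM, and Aurkaip1, also of the small subunit, had 33.9 and 34.2 RPKM. Ict1, a peptidyl-tRNA hydrolase built into the large subunit, had 31.3 and 29.1 RPKM, and Ptcd3, an RNA-binding pentatricopeptide protein of the small subunit, had 28.6 and 31.1 RPKM. Dap3 (14.6 and 15.5 RPKM), a GTP-binding small subunit protein, and Gadd45gip1 (9.93 and 12.7 RPKM) and Mrp63 (10.3 and 9.52 RPKM) of the large subunit were lower. The median of these 7 genes was 29.9 RPKM.

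The products of the mitochondrial ribosome work beside nuclear-encoded oxidative phosphorylation subunits, and those genes lay higher. Their median was 74.9 RPKM over 75 genes, and the log2 difference, members minus this list, was -1.71. Cox6c, of cytochrome oxidase, was highest at 421 and 451 RPKM, followed by Atp5b, the catalytic subunit of ATP synthase, at 366 and 350 RPKM. Ndufa11 of complex I was at 15.3 and 14.6 RPKM, inside the range of the members. For the 76 cytosolic ribosomal protein genes the median was 789.6 RPKM, with Rpl41 (2129 and 2044 RPKM) and Rps12 (1789 and 1814 RPKM) on top, and the log2 difference was -5.11. Only 4 members were among the highest genes at all, that is within the top 1365 of 13647, against 65 oxidative phosphorylation and 72 cytosolic ribosomal protein genes.

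The machinery that assembles and serves the mitochondrial ribosome lay lower in RPKM than the ribosome genes themselves. These genes were longer, with median exon lengths of 1834 to 2594.5 bases by list, against 1053 for the members. Median reads in uterus 1 and 2 were 95 and 110.5 for members, and 98 and 103 for translation factors. They were 129 and 135.5 for mitochondrial DNA expression, 75 and 75 for assembly, and 70 and 93.5 for tRNA charging. The RPKM order thus did not hold in reads for every list. The 15 translation factors had a median of 14.0 RPKM, 0.71 below the members on the log2 scale. Tufm, the elongation factor that delivers tRNAs, stood at 45.2 and 43.8 RPKM and Slirp, which protects mitochondrial messengers, at 27.4 and 28.6 RPKM, while the initiation factor Mtif3 had 3.43 and 2.49 RPKM and the release factor Mtrf1 4.34 and 3.79 RPKM. The 26 assembly factors had a median of 9.22 RPKM, 1.31 below the members, from Mterfd2 (26.7 and 27.8 RPKM) and Dhx30 (23.4 and 19.8 RPKM) to the RNA methyltransferase Mettl15 (3.72 and 2.61 RPKM) and the endonuclease Ybey (1.85 and 2.91 RPKM). The 20 genes for making charged tRNAs in mitochondria, aminoacyl-tRNA synthetases together with the amidotransferase subunits Qrsl1, Gatc and Pet112, had a median of 10.1 RPKM, 1.18 below the members. Their lowest were Pars2 (2.54 and 2.90 RPKM) and Qrsl1 (4.37 and 3.46 RPKM), and their highest Lars2 (1063 and 1778 RPKM) and Iars2 (20.9 and 21.6 RPKM). Genes for replication, transcription and RNA processing of mitochondrial DNA had a median of 11.8 RPKM over 16 genes, 0.95 below the members, from Hsd17b10 (57.0 and 51.3 RPKM) and Pnpt1 (27.5 and 36.6 RPKM) down to Tefm (5.07 and 6.57 RPKM) and Polg2 (3.97 and 2.98 RPKM).

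Between the uteri, the exact binomial test called 0 of 15 translation factors (0 also at an unadjusted p under 0.05), 0 of 26 assembly factors (3 unadjusted), 1 of 20 genes of tRNA charging (Lars2; 3 unadjusted) and 1 of 16 genes of mitochondrial DNA expression (Pnpt1, adjusted p = 0.00647; 3 unadjusted). It called 3 of 74 oxidative phosphorylation genes (6 unadjusted) and 21 of 74 cytosolic ribosomal protein genes (39 unadjusted). Over all genes tested it called 5.4%, and 16.3% had an unadjusted p under 0.05. The cytosolic genes have far more reads, with a median of 2221.5 in uterus 1, and their ratios had an SD of 0.12 against 0.27 for the members.

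**Figure D4:**
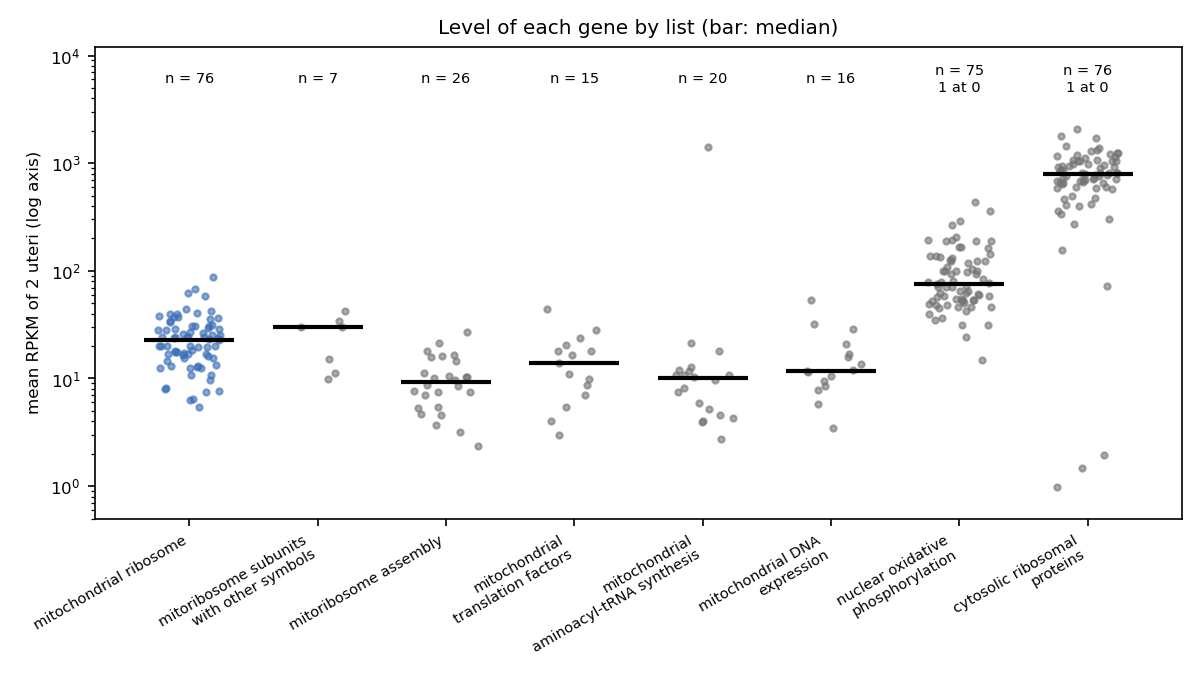
Mean RPKM over the 2 uteri (log axis) of each gene in the mitochondrial ribosome set and in related lists; each point is a gene, the bar is the median of the list, and genes listed at 0 are counted above the points and not drawn. The median of 22.9 RPKM for the mitochondrial ribosome lies above assembly (9.22), synthesis of aminoacyl-tRNA (10.1), mitochondrial DNA expression (11.8) and translation factors (14.0). It lies below oxidative phosphorylation (74.9) and cytosolic ribosomal proteins (789.6). The lists with lower medians hold longer genes, with median exon lengths of 1834 to 2594.5 bases against 1053.

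In the genome the 76 genes lay on 17 chromosomes, with 10 on chromosome 11, 8 on chromosome 17 and 7 on chromosome 6. Many began back to back with another gene. Of the members, 26 (34.2%) had a gene on the opposite strand starting within 1000 bases upstream, against 8.98% of 20380 genes with an NM_ identifier and 14.0% of those with a mean of at least 10 RPKM. Within 500 bases there were 22 (7.65% of NM_ genes), and within 2000 bases 30 (10.2% of NM_ genes). The median distance of the 26 was 148 bases.

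Mrpl46 and Mrps11 formed a pair within the set, with starts 42 bases apart, and their levels were close: 11.7 and 13.5 RPKM for Mrpl46, and 14.0 and 14.9 RPKM for Mrps11. Some neighbours also serve mitochondria. Mrps12 faced Sars2, the mitochondrial seryl-tRNA synthetase (5.60 and 4.92 RPKM), at 187 bases, and was 6.76-fold higher in mean RPKM. Mrpl43 (18.3 and 20.7 RPKM) faced Peo1, the Twinkle helicase of mitochondrial DNA (11.6 and 11.2 RPKM), at 116 bases. Mrpl47 was 0.198 times the level of its neighbour Ndufb5, a complex I subunit (56.1 and 51.5 RPKM). Mrps27 lay at 0.685 times the level of Ptcd2, a pentatricopeptide protein of mitochondrial RNA processing (14.5 and 16.97 RPKM).

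Other neighbours serve the cytosol or nucleus. Mrpl18 faced Tcp1, a chaperonin subunit (95.3 and 98.4 RPKM), Mrpl32 faced the proteasome subunit Psma2 (92.9 and 83.9 RPKM), and Mrpl49 faced Fau, which encodes a cytosolic ribosomal protein (385 and 398 RPKM). In these pairs the neighbour was higher. Mrps34 and Mrpl27 faced the endonuclease subunits Eme2 (10.8 and 10.3 RPKM) and Eme1 (1.52 and 2.11 RPKM), Mrpl21 the helicase Ighmbp2 (3.75 and 3.38 RPKM), Mrps18c the helicase Helq (4.17 and 3.95 RPKM) and Mrpl40 the histone chaperone Hira (11.7 and 9.59 RPKM), and there the member was higher. In all, the member was the higher gene in 20 of the 26 cases, where the pair of Mrpl46 and Mrps11 is counted from both sides. Medians were 23.1 RPKM for members and 10.1 RPKM for neighbours, and 24 neighbours reached a mean of 1 RPKM. Members without such a neighbour had a median of 21.7 RPKM, and all genes whose mean reached 1 RPKM had one of 10.99 RPKM. The count of 20 therefore does not set these pairs apart from members and genes in general. The remaining cases joined Mrpl10, Mrpl13, Mrpl14, Mrpl30, Mrpl41, Mrpl50, Mrpl51, Mrpl55, Mrps7, Mrps18b, Mrps21 and Mrps26 to genes at 0.573 (Lrrc46, beside Mrpl10) to 17.01 RPKM (Ncapd2, a condensin subunit beside Mrpl51).

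Reads can be shared where genes overlap, and use of strand in counting is not given in the sources used here. The spans of 8 members (10.5%, against 13.0% of NM_ genes) overlapped another gene: Mrpl19 with Gcfc2, Mrpl24 with Rrnad1, Mrpl41 with Wdr85, Mrpl49 with Syvn1, Mrpl53 with Ccdc142, Mrps6 with Slc5a3, Mrps25 with Nr2c2 and Mrps27 with 6430562O15Rik. The levels of these 8 genes are therefore less certain than the others. Without them, the median member had 23.6 RPKM.

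Some of the promoters, taken as 250 bases before to 50 after each start, shared short sequence matches. Each motif was searched on both strands. The ETS motif, bound by factors such as GABP, was in 33 promoters (43.4%), against 12.1% of all NM_ genes and 20.7% of NM_ genes of at least 10 RPKM. Of its 38 matches, 27 began in the 60 bases before the start, as in the promoters of Mrpl27, Mrps10 and Mrps18a printed above. The ETS share was 40.8% for cytosolic ribosomal protein genes and 24.0% for oxidative phosphorylation genes, so it was not a feature of the mitochondrial ribosome alone. A match is a description of letters and does not show binding.

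The YY1 motif was in 9 promoters (11.8%), against 1.54% of all NM_ genes, 3.29% of NM_ genes of at least 10 RPKM, 8% of oxidative phosphorylation genes and 1.32% of cytosolic ribosomal protein genes. In 8 of the 9 genes it lay at or after the start, as in the sequences of Mrps10, Mrps18a, Mrps27 and Mrpl27. With only the 250 bases before the start searched it was in 1 promoter (1.32%). Among all NM_ genes the same change took the count from 313 to 96 (0.471%), so there too most matches relied on bases from the start on. The letters of the YY1 motif include ATG, so a match can coincide with a start codon, which was not tested. ETS and YY1 matches stood together in 5 promoters (6.58%, against 0.368% of all NM_ genes and 0.703% of NM_ genes of at least 10 RPKM), those of Mrpl27, Mrps10, Mrps14, Mrps18a and Mrps27.

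The NRF1 motif, named after a regulator of nuclear genes for mitochondrial proteins, was in 11 promoters (14.5%), against 6.64% of all NM_ genes and 11.7% of NM_ genes of at least 10 RPKM, a share close to that of genes of like level. Oxidative phosphorylation genes held it in 21.3%. At least 1 of the ETS, NRF1 and YY1 motifs was in 45 members (59.2%), against 18.4% of all NM_ genes and 32.2% of NM_ genes of at least 10 RPKM, and none was in the other 31. The remaining motifs were GGGCGG, of Sp1, in 40 members (52.6%, against 48.6% of NM_ genes and 68.8% of those of at least 10 RPKM), CCAAT in 28 (36.8%, against 38.3% and 37.1%) and TATAAA, the TATA box, in 4 (5.26%, against 12.7% and 6.69%). The Sp1 share thus lay above the former background and below the latter, and the CCAAT and TATA shares lay close to those of genes of at least 10 RPKM. The ratio of observed to expected CpG had a median of 0.820 in the members, 0.607 in all NM_ genes and 0.808 in NM_ genes of at least 10 RPKM.

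**Figure D5:**
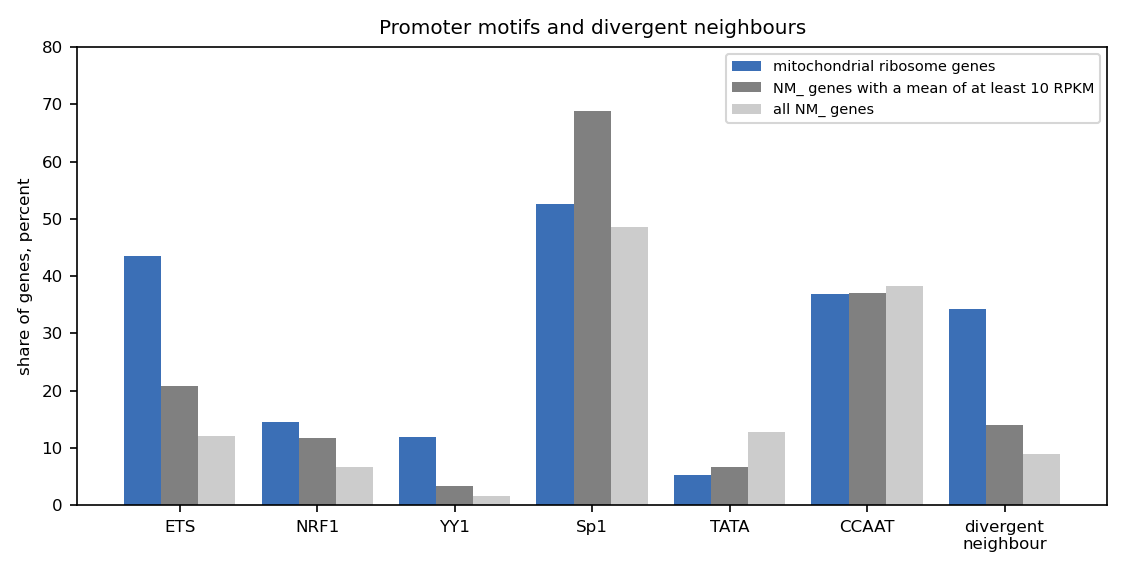
Share of genes, in percent, whose promoter (250 bases before to 50 after the start) holds each motif on either strand, and share with an opposite-strand gene starting within 1000 bases upstream, for mitochondrial ribosome genes, NM_ genes of at least 10 RPKM and all NM_ genes. ETS (43.4%), NRF1 (14.5%), YY1 (11.8%) and divergent neighbours (34.2%) are more frequent in the members than in both backgrounds, NRF1 by the smallest margin over genes of at least 10 RPKM (11.7%), and Sp1, CCAAT and TATA are not.

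Regulators that are known to act on nuclear genes for mitochondria were measured in the same libraries. Gabpa, the DNA-binding subunit of the ETS-family factor GABP, had 19.4 and 22.0 RPKM, and its partner Gabpb1 had 4.99 and 5.87 RPKM. Yy1 had 30.6 and 31.3 RPKM, and Nrf1 had 7.52 and 7.21 RPKM. Of the coactivators, Ppargc1a had 0.281 and 0.362 RPKM and Ppargc1b 1.498 and 1.74 RPKM, while Pprc1 had 13.6 and 11.2 RPKM. The orphan receptor Esrra had 12.6 and 11.3 RPKM, and Myc, which promotes ribosome production, had 39.0 and 37.9 RPKM. With a single group, no relation between a regulator and the members could be tested.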

How the data were processed

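Whole uterus RNA of 2 mice was measured, 1 library each. TRIzol extraction and TruSeq RNA libraries are named per the labels' protocols, and poly-A selection per the series' design text; the submitters' processing notes name TopHat, edgeR and mm9, with no versions. The authors deposited RPKM per gene and library; annotation release and strand use are not given in the sources used here. Both deposited tables hold identical values for all 22740 genes. Deposited starts were read as counted from 0, since 11970 of 20733 genes matched to the GENCODE M1 annotation of NCBIM37 start 1 base later there, and 779 at the same base.

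RPKM values are whole reads over length and scaling totals of 3834174 (uterus 1) and 4256101 (uterus 2). Of 178 and 184 single-exon values used as a check, 100% came out whole within 0.001 reads. A common factor was chosen by closeness to annotated length (scale 0.05 in the logarithm); the smallest possible sums were 3487503 and 3874963 reads. For 73 of 76 members the implied length was within 1 base of an annotated one, and 17 members have reads above the smallest possible. Exact 95% intervals of a member's ratio come from these reads. On simulated data for this library comparison (15186 genes), both reads were recovered exactly for 98.1% of genes. The test called 64% of 100 genes changed 1.5-fold, 87.9% of 99 genes changed 2-fold and 9 unchanged genes. These shares were not worked out for the members alone.

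Genes with at least 6 reads in sum entered the exact binomial test. No count model between groups could be made with 1 group, and the p-values take in counting error only, not the spread between animals. Named genes were the 5 highest and 5 lowest members of each subunit, the 5 largest ratios each way from 10 RPKM, members with a place in the ribosome, an overlap or a divergent neighbour, and the 2 highest and lowest of each related list. Mterf1a and Mterf1b were not analysed here. The members and lists were chosen with earlier results of these data known. Promoters came from NCBIM37. Alternatives were other thresholds, pseudocounts, the TPM scale, single libraries, distances, motif windows and reads. Python 3.11.15, numpy 2.4.6, pandas 2.3.3, scipy 1.17.1 and matplotlib 3.10.9 were used.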

Additional observations from a re-analysis of the deposited data

How the results depend on the processing

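Of the values recomputed under other settings, 47 stayed within the spread between the uteri or, for counts, within 1.5 times, 9 moved and none reversed. Rescaled to TPM, the median member rose to 54.1, as every gene is multiplied alike. From a single uterus, the median member lay between 21.4 and 23.2 RPKM, the difference between large and small subunit genes between 0.13 and 0.17 (log2), that from cytosolic ribosomal protein genes between -5.17 and -5.12, that from genes of tRNA charging between 1.23 and 1.29 and that from mitochondrial DNA expression genes between 0.71 and 1.03. With only the bases before the start, the YY1 motif was in 1 promoter in place of 9. With the smallest possible reads, 2 members passed the exact binomial test in place of 3. No paired analysis was possible because both libraries are of the same group. A median of 95 and 110.5 reads per member limits which differences between the uteri can be seen, and with 2 animals the spread between animals is itself poorly known.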

Other observations

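Within the related lists, a few genes stood far from the rest. Lars2, the mitochondrial leucyl-tRNA synthetase gene, had 1063 RPKM in uterus 1 and 1778 RPKM in uterus 2 (15824 and 29373 reads), whereas the next of the genes of tRNA charging, Iars2, had 20.9 and 21.6 RPKM. Among genes that most cells use, Rpl26 and the complex I gene Ndufs5 were listed at 0 in both uteri. Rpl30 (0.833 and 1.13 RPKM), Rpl34 (1.75 and 1.18 RPKM) and Rps27 (1.81 and 2.04 RPKM) were also far under the median of 789.6 RPKM for cytosolic ribosomal protein genes. No member of the mitochondrial ribosome set was listed at 0 or under 4.997 RPKM in either uterus. These genes were chosen after their values were seen.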
